A study of Mus musculus with 8 samples.

Results

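The genes described here are Igf1, its receptor Igf1r and 6 IGF-binding protein genes, Igfbp2 to Igfbp7. They were chosen by symbol from the deposited expression tables, and all 8 were found among 55276 gene symbols. Insulin-like growth factor 1 is a secreted growth signal that acts through the receptor tyrosine kinase IGF1R, and in regenerating muscle it is known to promote the proliferation and differentiation of muscle stem cells and the growth of new fibers. The binding proteins are secreted by many mesenchymal cells. They hold IGFs in the extracellular space, prolong their life and limit or direct their access to the receptor, and proteases release the bound ligand.

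The cells were fibro-adipogenic progenitors (FAPs), the interstitial mesenchymal cells of muscle, sorted as GFP+ cells from tibialis anterior muscle after freeze-pierce injury of mice aged 4 to 6 months. The study's sorting scheme gates on live cells and separates those that stain for blood or endothelial lineage markers. The 8 RNA-seq libraries formed 4 groups of 2: controls (Ctrl, genotype Osr1 flox/+ with CAGG Cre) and Osr1cKO (Osr1 flox/flox with CAGG Cre), each at 3 and 7 days post-injury (dpi). Osr1 encodes a transcription factor of FAPs. Every mouse, controls included, carried the ubiquitous, tamoxifen-dependent CAGG Cre driver, at least 1 floxed Osr1 allele that expresses eGFP once recombined, and had received tamoxifen from the day of injury, so the controls were heterozygous for Osr1 and the deletion was not limited to FAPs. Each 3 dpi library was made from 1 mouse and each 7 dpi library from 4 mice that were pooled, so day and pooling cannot be told apart, and the sequencing run may also differ between the days, since the study's methods name a second instrument where the sample labels give the same for all.

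Depth, recovered from the TPM values (relative transcript abundance scaled for length, with the same sum in every library) and exon lengths, lay between 36516528 and 51096358 fragments per library. Osr1, whose floxed part is only a portion of the transcript, had 105.0 and 91.0 TPM in Ctrl and 70.7 and 71.9 TPM in Osr1cKO at 3 dpi, and 67.6 and 71.6 TPM in Ctrl and 64.4 and 60.8 TPM in Osr1cKO at 7 dpi. All 7 FAP markers were high, with a summed level of 20358 to 35017 TPM. Col1a1, at 12404 to 28083 TPM, was the largest part of this sum in every library. Single FAP markers went both ways between the days. At 3 and 7 dpi, respectively, Pdgfra had 254 to 365 and 197 to 229 TPM, Ly6a 2020 to 5407 and 1357 to 1840 TPM, and Pdgfrb 284 to 373 and 203 to 231 TPM. Dcn, Lum and Cd34 were higher in every 7 dpi library than in any 3 dpi library, and Col1a1 overlapped. Summed markers of macrophages, tenocytes, endothelial cells, muscle stem cells, myofibers and erythroid cells were higher in every 7 dpi library than in any 3 dpi library, and those of mural and Schwann cells overlapped. Not every gene followed its sum. Tek was the largest part of the endothelial sum in every library, while Kdr had 0.880 to 16.8 TPM at 3 dpi and 1.14 to 2.05 TPM at 7 dpi. Itga7 was the largest part of the muscle stem cell sum, while Cdh15 overlapped between the days (0.164 to 1.31 and 0.669 to 5.28 TPM). The macrophage marker Cd68 overlapped too (6.87 to 15.4 and 12.5 to 17.4 TPM). The 10 macrophage markers summed to 12.2 to 24.0 TPM at 3 dpi and 51.2 to 80.1 TPM at 7 dpi, from Ptprc, at most 0.216 TPM in any library, to Lyz2, at most 36.1 TPM. The 3 tenocyte markers summed to 5.22 to 16.5 TPM at 3 dpi, 81.8 to 155 TPM in Ctrl at 7 dpi and 287 to 389 TPM in Osr1cKO at 7 dpi. At 3 and 7 dpi, respectively, the sums were 17.2 to 44.6 and 46.5 to 71.7 TPM for endothelial, 30.6 to 52.4 and 49.4 to 111 TPM for mural, 5.52 to 7.76 and 11.7 to 27.7 TPM for muscle stem cell, 5.40 to 10.8 and 32.7 to 53.1 TPM for myofiber, 0.836 to 1.76 and 1.41 to 4.08 TPM for Schwann cell and 0 to 1.47 and 11.7 to 54.0 TPM for erythroid markers. In bulk RNA, fewer cells of a kind and less RNA per cell cannot be told apart.

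RefSeq starts on GRCm38.p6, the assembly of mm10, were at hand for all 8 genes. The 250 bases before the start are shown for 4 of them, Igf1, Igfbp5, Igfbp4 and Igf1r. The first 3 were among the members called between the days below, as were others not shown, such as Igfbp6. Igf1r encodes the receptor of the same ligand. Each window runs 5′ to 3′ on the strand of its gene, and capitals mark CG dinucleotides. The windows were chr10:87860861-87861110 on the plus strand for Igf1, chr1:72874866-72875115 on the minus strand for Igfbp5, chr11:99040994-99041243 on the plus strand for Igfbp4 and chr7:67952007-67952256 on the plus strand for Igf1r. The Igf1 window lies inside the annotated gene, which begins at chr10:87858265, so the RefSeq start used is not its first annotated start.
Igf1: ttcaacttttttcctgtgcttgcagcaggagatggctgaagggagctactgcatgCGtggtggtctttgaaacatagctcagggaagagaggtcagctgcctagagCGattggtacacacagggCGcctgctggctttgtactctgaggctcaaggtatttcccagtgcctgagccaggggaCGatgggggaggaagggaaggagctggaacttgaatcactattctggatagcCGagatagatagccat
Igfbp5: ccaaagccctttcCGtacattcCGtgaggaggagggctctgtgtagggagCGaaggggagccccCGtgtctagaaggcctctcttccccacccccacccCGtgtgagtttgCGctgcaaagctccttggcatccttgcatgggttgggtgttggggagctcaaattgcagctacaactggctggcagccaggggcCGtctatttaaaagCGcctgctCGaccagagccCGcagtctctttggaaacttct
Igfbp4: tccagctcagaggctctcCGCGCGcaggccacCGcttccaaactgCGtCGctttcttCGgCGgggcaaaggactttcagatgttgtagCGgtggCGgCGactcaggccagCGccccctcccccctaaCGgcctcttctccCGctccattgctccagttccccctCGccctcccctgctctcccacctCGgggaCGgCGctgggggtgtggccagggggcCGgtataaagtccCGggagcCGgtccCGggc
Igf1r: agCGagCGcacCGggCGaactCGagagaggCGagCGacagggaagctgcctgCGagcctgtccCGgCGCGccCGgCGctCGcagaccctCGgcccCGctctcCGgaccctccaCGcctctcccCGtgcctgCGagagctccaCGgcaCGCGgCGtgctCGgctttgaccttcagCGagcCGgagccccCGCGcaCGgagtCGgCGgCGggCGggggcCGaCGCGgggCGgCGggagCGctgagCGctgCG
The Igf1r window held 42 CG dinucleotides and was 77.6% G and C, a CG number reached by 0.865% of 32851 promoters of the same length. The Igf1 window held 5, close to the median of 6 over all promoters, Igfbp5 held 10 and Igfbp4 held 22. Motifs were searched on both strands. TATAAA was found 28 bases before the start of Igfbp4, on the strand of the gene, and 148 bases before that of Igfbp6, on the opposite strand. It was found in none of the other members, against 12.4% of all promoters. Neither the forkhead motif GTAAACA nor the STAT motif TTCNNNGAA was found in any member's window, against 3.17% and 7.02% of all promoters. These counts describe the letters of these windows only.

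Positions of the genes are on the mm10 assembly. Igfbp2 (chr1:72824503-72852474, plus strand) and Igfbp5 (chr1:72857932-72874884, minus strand) are neighbours with their 3′ ends facing across 5457 bp. Igfbp3 (chr11:7206086-7213923) lies 3539 bp from Igfbp1, a binding protein of liver that was listed at no more than 0.105 TPM. Igf1 (chr10:87858265-87937042) has an antisense transcript, Igf1os, that shares no exonic base with it and was at most 0.200 TPM. Igfbp7 (chr5:77349240-77408041) shares 85 exonic bases with Polr2b on the opposite strand, and as the counter's strand setting is not given, reads of those bases could go to either gene. The remaining members are Igf1r (chr7:67952827-68233668), Igfbp4 (chr11:99041244-99054392) and Igfbp6 (chr15:102144362-102149511), and none of them, nor Igfbp2, Igfbp3 or Igfbp5, overlaps another annotated gene.

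TPM is scaled for transcript length, so levels can be set side by side between genes. Igfbp7 was the highest member in every library and by its group means ranked 36 to 76 among all genes. In Ctrl at 3 dpi it had 1597 ± 176 TPM (mean ± SD, n = 2), followed by Igfbp4 and Igfbp6, whose ranges overlapped, then by Igfbp3 and Igfbp5, which also overlapped, by Igf1r and Igf1, which overlapped, and by Igfbp2 at 0.452 ± 0.037 TPM. In Osr1cKO at 3 dpi the order was Igfbp7, Igfbp4, Igfbp6, Igfbp5, then Igfbp3 and Igf1 with overlapping ranges, Igf1r and Igfbp2. In Ctrl at 7 dpi Igfbp7 (2361 ± 52 TPM) was followed by Igfbp4 and Igfbp6 with overlapping ranges, Igfbp5, Igf1, Igfbp3, Igf1r and Igfbp2. In Osr1cKO at 7 dpi the order was Igfbp7, Igfbp4, then Igfbp6 and Igfbp5 with overlapping ranges, Igf1, Igfbp3, Igf1r and Igfbp2.

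**Figure D1:**
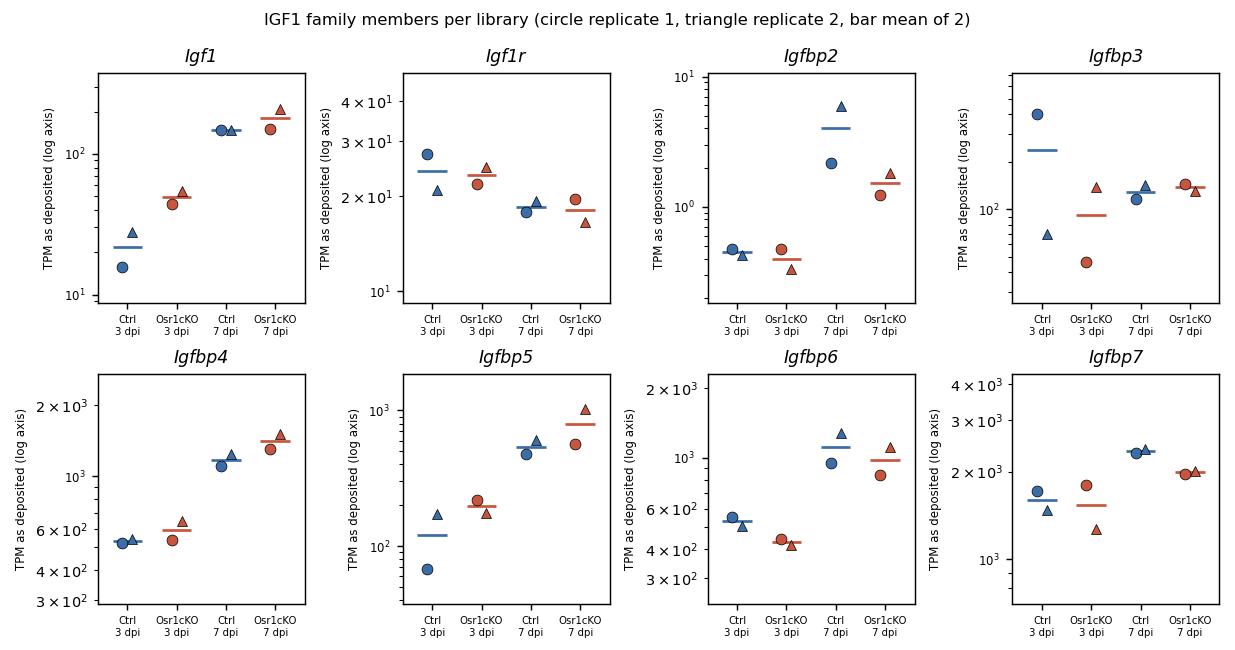
Each panel plots the deposited TPM of 1 gene (y axis, log scale, its own range per panel) in the 8 libraries by genotype and day (x axis), with a bar at the mean of the 2 libraries. Igf1, Igfbp2, Igfbp4, Igfbp5, Igfbp6 and Igfbp7 were higher in all 7 dpi libraries than in any 3 dpi library. Igf1 was also higher in Osr1cKO than in Ctrl at 3 dpi, and Igfbp3 spanned 70.0 to 401 TPM between the 2 Ctrl libraries at 3 dpi.

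To ask what loss of Osr1 changed at 3 dpi, Osr1cKO was compared with Ctrl. Of the members, only the ligand gene Igf1 passed the test, and it was higher in Osr1cKO. Igfbp5 had higher and Igfbp6 lower values in both Osr1cKO libraries without passing, and the other binding-protein genes and the receptor gene overlapped between the genotypes. A gene was called at 3 dpi with a fold change over 1.2 and an unadjusted p under 0.05, the study's own rule for this day. This called 6.27% of the 15699 genes tested (2.38% as higher and 3.89% as lower), and 1 of the 8 members.

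Igf1, the ligand, had 15.8 and 27.7 TPM in the Ctrl libraries and 44.1 and 54.6 TPM in the Osr1cKO libraries. Both Osr1cKO libraries lay above both Ctrl libraries, and each value rested on at least 1944 fragments. The fitted log2 fold change was 1.19 (SE 0.29, 95% interval 0.45 to 1.93), a 2.28-fold difference on the log2(TPM + 1) scale, with an unadjusted p of 0.00912 and a Benjamini-Hochberg adjusted p of 0.772 in limma. It stayed called under each alternative and without each library in turn. Its size rested in part on the first Ctrl replicate, and without that library the log2 fold change was 0.79 (unadjusted p = 0.00806 in limma). The macrophage markers summed to 21.2 to 22.3 TPM in Ctrl and to 12.2 to 24.0 TPM in Osr1cKO, the endothelial markers to 21.4 to 44.6 TPM in Ctrl and to 17.2 to 18.1 TPM in Osr1cKO, and the tenocyte markers to 5.22 to 9.29 TPM in Ctrl and to 11.1 to 16.5 TPM in Osr1cKO. The part of these cell types in the Igf1 difference was not tested.

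Igf1r, which encodes the receptor, had 27.3 and 20.9 TPM in Ctrl and 21.9 and 24.8 TPM in Osr1cKO. The Osr1cKO values lay within the range of the controls, and the log2 fold change was −0.04 (95% interval −0.49 to 0.42).

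Among the binding proteins, Igfbp5, which also binds the extracellular matrix, had 67.8 and 172.5 TPM in Ctrl and 218.1 and 175.7 TPM in Osr1cKO. Both Osr1cKO libraries were higher than both Ctrl libraries, though one by under 4 TPM, and the log2 fold change of 0.85 (SE 0.45) did not pass (unadjusted p = 0.121 in limma). It was 0.17 without the first Ctrl replicate, and 1.52 and called without the second. Igfbp6, which prefers IGF2 to IGF1, had 553.6 and 504.9 TPM in Ctrl and 441.4 and 418.3 TPM in Osr1cKO. Both Osr1cKO libraries were lower, and the log2 fold change of −0.30 (SE 0.14) did not pass either (unadjusted p = 0.0910 in limma). Together with Igf1, these were 3 of 8 members whose groups did not overlap, against 36.2% of all genes tested.

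The other 4 binding proteins overlapped between the groups. Igfbp3, the main carrier of IGFs in blood, had 401.0 and 70.0 TPM in Ctrl and 46.4 and 138.9 TPM in Osr1cKO. The first Ctrl replicate stood apart: with it the log2 fold change was −1.05 (SE 0.92), and without it 0.19, while without the second Ctrl replicate it was −2.30 and called. The same library had 16.8 TPM of Kdr, an endothelial receptor gene, against 0.880 to 2.25 TPM in the other 3 libraries of that day, and 25.4 TPM of Tek against 14.9 to 16.5 TPM, while Pecam1 and Cdh5 were at 1.19 and 0.821 TPM there, within or close to the range of the others. The 6 endothelial markers summed to 44.6 TPM in it and to 17.2 to 21.4 TPM in the others, and the part of such cells in its Igfbp3 level was not tested. Some FAP markers stood apart in it too. Col1a1 had 12404 TPM against 20485 to 25017 TPM, and Ly6a 5407 TPM against 2020 to 4232 TPM, while Pdgfrb, at 360 TPM, lay within 284 to 373 TPM. Over the genes kept by the filter, the median absolute log2 difference between replicates was 0.239 in Ctrl at 3 dpi and 0.132 to 0.154 in the other groups. Igfbp4, a target of the protease PAPP-A, had 520.8 and 541.4 TPM in Ctrl and 537.0 and 649.5 TPM in Osr1cKO, with a log2 fold change of 0.15 (SE 0.16). Igfbp7, which binds IGFs more weakly than the others, had 1722 and 1473 TPM in Ctrl and 1803 and 1271 TPM in Osr1cKO. Igfbp2, at 0.331 to 0.478 TPM, had between 8 and 11 fragments in each of these 4 libraries, and a small difference could not be seen with so few.

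At 7 dpi the same comparison gave no member past the threshold. A call at this day needed a fold change over 1.2 and an adjusted p under 0.1, which 0.0664% of the 16578 genes tested passed. At an unadjusted p under 0.05, which 12.5% of all genes reached, 2 of 8 members lay, Igfbp2 and Igfbp7, both lower in Osr1cKO. On TPM left unscaled, these p-values were 0.0562 for Igfbp2 and 0.0860 for Igfbp7 in limma. By limma-voom on the recovered fragments, which called 2.52% of 16358 genes, 1 member, Igfbp7, was called.

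Igf1 had 148.2 and 147.7 TPM in Ctrl and 149.7 and 208.5 TPM in Osr1cKO. Both Osr1cKO libraries were above both Ctrl libraries as deposited, the first by under 2 TPM. After scaling for composition the values were 156.3 and 152.1 in Ctrl and 147.7 and 196.5 in Osr1cKO, which overlap, and the log2 fold change was 0.12 (95% interval −0.23 to 0.48). Left unscaled, the median of all genes stood at a log2 fold change of 0.11 in place of 0.005, and 42.8% of all genes had both deposited Osr1cKO values above both Ctrl values, and 10.7% had both below. Members in the first of these classes were Igf1 and Igfbp4, and in the second Igfbp2 and Igfbp7.

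Igfbp7 had 2324 and 2397 TPM in Ctrl and 1968 and 2009 TPM in Osr1cKO. The replicates lay close together and the groups were apart. The log2 fold change was −0.38 (SE 0.12), with an unadjusted p of 0.0240 and an adjusted p of 0.341 in limma. In limma-voom, which called 101 genes as higher and 312 as lower at this day, the adjusted p was 0.0768. Left unscaled, the log2 fold change was −0.25 (unadjusted p = 0.0860 in limma). With all 8 libraries in 1 fit it was −0.36 (unadjusted p = 0.137 in limma). Igfbp2 had 2.16 and 5.89 TPM in Ctrl and 1.24 and 1.8 TPM in Osr1cKO. All 4 values were low, the Ctrl libraries differed from each other more than the lower of them did from Osr1cKO, and the log2 fold change of −0.99 (SE 0.38) had an adjusted p of 0.382 in limma. Without the first Ctrl library Igfbp2 was called (log2 fold change −1.56, adjusted p = 0.0406 in limma), and without the second it was −0.43.

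Igfbp5 had 479.9 and 602.5 TPM in Ctrl and 566.4 and 1029 TPM in Osr1cKO. The second Osr1cKO library was the highest of all and the first lay between the controls, so that the log2 fold change of 0.37 (SE 0.27) was −0.03 without the former. Igfbp4 had 1107 and 1239 TPM in Ctrl and 1310 and 1505 TPM in Osr1cKO, for a difference of 0.13 on the log2 scale (SE 0.12). Igfbp6 had 942.9 and 1277 TPM in Ctrl and 836.0 and 1115 TPM in Osr1cKO, with overlapping ranges and a log2 fold change of −0.32 (SE 0.19). Igfbp3, at 116.3 to 144.0 TPM in the 4 libraries, and Igf1r, at 16.6 to 19.6 TPM, overlapped between the genotypes.

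The effect of genotype on Igf1 was smaller at 7 dpi than at 3 dpi by 1.08 on the log2 scale (interaction −1.08, SE 0.38, unadjusted p = 0.0249, adjusted p = 0.705 in limma over 17371 genes). No member and no gene of the table had an interaction at an adjusted p under 0.05 (0% called). At an unadjusted p under 0.05, Igf1 was 1 of 1177 genes, 6.78% of those tested, and the only member. limma-voom called no member either. Whether Osr1 loss acts on Igf1 differently on the 2 days was therefore not shown after correction.

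**Figure D2:**
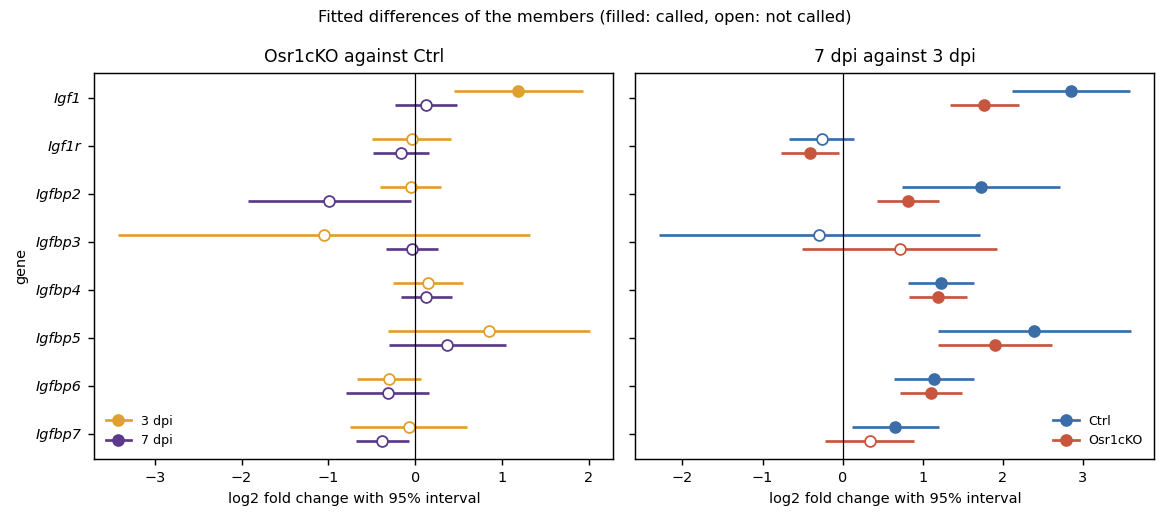
Points give the fitted log2 fold change of each member (x axis) with its 95% interval, for Osr1cKO against Ctrl at 3 and 7 dpi (left) and for 7 dpi against 3 dpi in Ctrl and Osr1cKO (right), and filled points passed the threshold of their comparison. Igf1 at 3 dpi is the only filled point on the left, at 1.19, while on the right Igf1, Igfbp2, Igfbp4, Igfbp5 and Igfbp6 are filled on the positive side in both genotypes.

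From 3 to 7 dpi, most members rose in both genotypes. In Ctrl, 6 of 8 members were called as higher and none as lower, where 23.8% of the 16525 genes tested were higher and 25.4% lower at a fold change over 1.2 and an adjusted p under 0.1. In Osr1cKO, 5 of 8 were higher and 1 was lower, where 27.4% of 16279 genes were higher and 29.1% lower. The median log2 fold change of the members was 1.19 in Ctrl and 0.96 in Osr1cKO, beside medians of 0.01 and 0.005 over all genes tested. With 49.3% of all genes in Ctrl and 56.5% in Osr1cKO called in either direction, a call between the days is common in this table. The summed markers of 6 of the 8 other cell types were also higher at 7 dpi, though not every gene followed its sum. Among them were those of macrophages, a known source of IGF1 and one that the lineage gate is meant to remove. The part of these other cell types in the rises of the members was not tested.

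Igf1 went from 15.8 and 27.7 TPM to 148.2 and 147.7 TPM in Ctrl, which gave a log2 fold change of 2.85 (SE 0.29, adjusted p = 0.00478 in limma) or 7.23-fold. In Osr1cKO, which started from 44.1 and 54.6 TPM, it reached 149.7 and 208.5 TPM, and the log2 fold change was 1.77 (SE 0.17, adjusted p = 0.0020 in limma) or 3.42-fold. Both rises stayed called under every alternative and without each library.

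Igfbp5 rose as well in both genotypes, with log2 fold changes of 2.39 (SE 0.47, adjusted p = 0.0178 in limma) and 1.90 (SE 0.28, adjusted p = 0.00532). Its level in Ctrl went from 67.8 and 172.5 TPM to 479.9 and 602.5 TPM. Igfbp4 and Igfbp6 rose by similar amounts in both genotypes: Igfbp4 by 1.23 (SE 0.16) in Ctrl and 1.19 (SE 0.14) in Osr1cKO, and Igfbp6 by 1.15 (SE 0.20) and 1.11 (SE 0.15). The adjusted p of these 4 values in limma lay between 0.00314 and 0.0130. Igfbp2 rose by 1.73 (SE 0.38) in Ctrl and 0.81 (SE 0.15) in Osr1cKO with a pseudocount of 1, and by 2.82 and 1.64 with a pseudocount of 0.1. From 8 to 11 fragments per library at 3 dpi, it reached 22 to 120 fragments at 7 dpi.

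Igfbp7 rose by 0.66 in Ctrl (SE 0.21, adjusted p = 0.0632 in limma) and gave 0.34 in Osr1cKO (SE 0.22, adjusted p = 0.253), where it did not pass although both 7 dpi libraries were above both 3 dpi libraries. Igf1r was the only member called as lower, by −0.40 in Osr1cKO (SE 0.14, adjusted p = 0.0696 in limma). In Ctrl it gave −0.26 (SE 0.16, adjusted p = 0.240), with both 7 dpi libraries below both 3 dpi libraries there too. Igfbp3 overlapped between the days in both genotypes, with −0.29 (SE 0.78) in Ctrl and 0.71 (SE 0.48) in Osr1cKO. In all, 7 of 8 members did not overlap between the days in each genotype, where 74.9% of all genes in Ctrl and 77.2% in Osr1cKO did not.

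These calls differed in how far they rested on single libraries. Without the second Ctrl replicate of 7 dpi, Igfbp5 (adjusted p = 0.10), Igfbp6 (adjusted p = 0.129) and Igfbp7 (adjusted p = 0.383) no longer passed in Ctrl, and the Ctrl rise of Igfbp2 was 1.18. Without the first Ctrl replicate of 7 dpi, Igfbp7 had an adjusted p of 0.359. Without the second Osr1cKO replicate of 3 dpi or of 7 dpi, Igf1r had an adjusted p of 0.147 or 0.292, and without the first of 3 dpi Igfbp7 was called in Osr1cKO (adjusted p = 0.0370). Igfbp3 in Ctrl was called as higher without the first 3 dpi replicate (0.91) and as lower without the second (−1.52), where Igf1r was called as lower too (−0.42), and in Osr1cKO it was called as higher without the second 3 dpi replicate (1.47). All of these p-values are from limma. In a fit with the replicate number as a block, Igfbp7 in Ctrl (adjusted p = 0.266 in limma) and Igf1r in Osr1cKO (adjusted p = 0.108) were not called.

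The make-up of the binding-protein transcripts was compared within each library, where scaling plays no part. Summed over Igfbp2 to Igfbp7, they took 0.265% to 0.327% of all TPM at 3 dpi and 0.483% to 0.579% at 7 dpi. Igfbp7 held 47.9% to 59.2% of this sum at 3 dpi and 34.7% to 46.7% at 7 dpi, so its share was lower in all 4 of the later libraries although its own level was not. Igfbp5 went from 2.08% to 7.16% of the sum at 3 dpi to 9.65% to 17.8% at 7 dpi. Igfbp4 held 15.9% to 24.5% and 21.9% to 27.1%, and Igfbp6 14.5% to 18.3% and 17.3% to 22.6%, with ranges that overlap between the days. Igfbp3 held 12.3% in the first Ctrl replicate of 3 dpi and 1.52% to 5.23% in the other 7 libraries. Igfbp2 never exceeded 0.104%. At 7 dpi the Igfbp7 share was 46.7% and 42.3% in Ctrl and 40.8% and 34.7% in Osr1cKO, and the Igfbp5 share 9.65% and 10.6% in Ctrl and 11.7% and 17.8% in Osr1cKO.

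**Figure D3:**
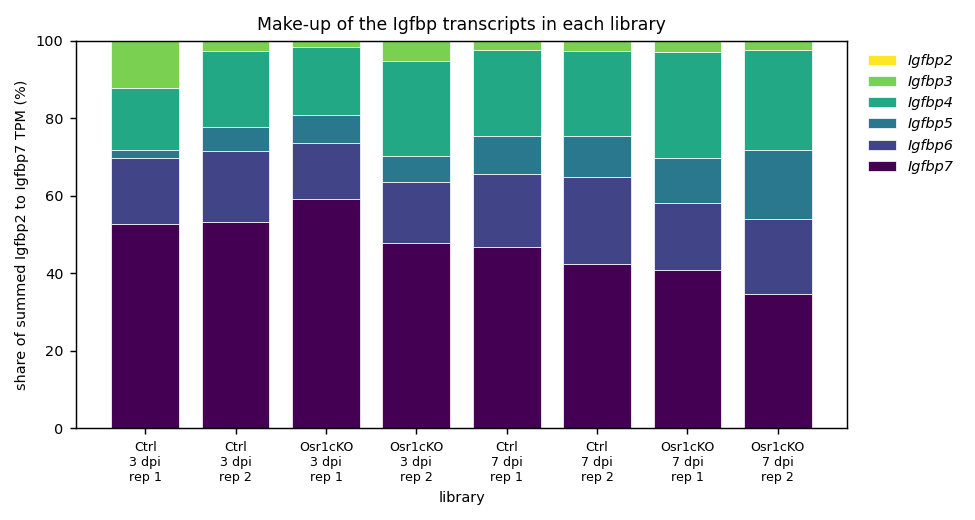
Stacked bars give the share of each binding-protein gene in the summed Igfbp2 to Igfbp7 TPM (y axis, percent) of each library (x axis). Igfbp7 is the largest part of every bar and shrinks from at least 47.9% at 3 dpi to at most 46.7% at 7 dpi, while Igfbp5 widens from at most 7.16% to at least 9.65%.

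Igf1 transcripts rose more than those of the binding proteins together. Igf1 TPM as a percent of summed Igfbp2 to Igfbp7 TPM was 0.483 and 1.0 in Ctrl and 1.45 and 2.06 in Osr1cKO at 3 dpi, and 2.98 and 2.61 in Ctrl and 3.10 and 3.6 in Osr1cKO at 7 dpi. All 7 dpi values lay above all 3 dpi values, and within each day both Osr1cKO values lay above both Ctrl values. The difference in mean log2 ratio was 1.48 between the days, averaged over the genotypes, and 0.79 between the genotypes, averaged over the days. By the values above, the genotype difference was larger at 3 dpi than at 7 dpi. Each average had p = 0.0556 in a two-sided exact permutation test over 36 relabellings, which is the smallest p this design allows. After Benjamini-Hochberg adjustment over 4 tests, p was 0.0741 for each in this permutation test. Without Igfbp7 in the sum, the differences were 1.14 (exact permutation p = 0.0556) and 0.72 (exact permutation p = 0.167). At 7 dpi the Osr1cKO ratios then lay between the Ctrl ratios. A ratio of transcripts says nothing of the amounts of protein.

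**Figure D4:**
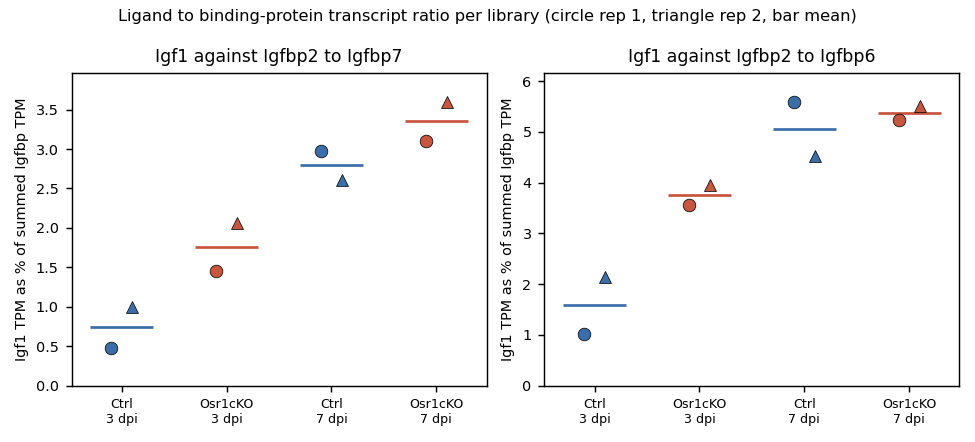
Points give Igf1 TPM as a percent of summed Igfbp TPM (y axis, from 0) in each library by genotype and day (x axis), with bars at the mean of 2, against all 6 binding-protein genes (left) and without Igfbp7 (right). On the left the Osr1cKO points lie above the Ctrl points within each day, and on the right the Osr1cKO points of 7 dpi, 5.24% and 5.51%, lie between the Ctrl points of 4.52% and 5.6%.

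For each member whose group means spanned at least 1 on the log2 scale, the 3 genes of most similar pattern were taken from 9366 genes with a mean of at least 10 TPM in any group, by Pearson's r over the 8 libraries. These r values are descriptions, since the libraries share their days and depths. For Igf1 they were Colgalt2 (r = 0.997), a collagen galactosyltransferase, Arhgef25 (0.993) and Fndc1 (0.993). For Igfbp5 they were Tial1, Spon2 and Hoxd9 (0.986 each), for Igfbp4 Chmp2b, Ecrg4 and mt-Co3 (0.994 to 0.995), and for Igfbp6 Ppt1, Chrd, which encodes the BMP antagonist chordin, and Ddah2 (0.991 to 0.992). Igfbp2 was nearest to Rnf130, Radil and Map3k5 (0.967 to 0.975), and Igfbp3 to Ranbp9, Gclc and Tsc22d3 (0.952 to 0.958). No gene was among the 3 nearest of more than 1 of these members.

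Of 50 further genes of the IGF pathway, 45 could be tested at 3 dpi, and 0 were called as higher and 2 as lower in Osr1cKO, a share near the 3.89% of all genes called as lower. The second IGF ligand, Igf2, had 1.52 and 1.24 TPM in Ctrl and 0.718 and 0.787 TPM in Osr1cKO (log2 fold change −0.44, SE 0.16, unadjusted p = 0.0388, adjusted p = 0.784 in limma), which is opposite in sign to Igf1 at a far lower level. The other was the adaptor gene Irs3 (−0.52, SE 0.19). At 7 dpi none of 45 was called. Igf2 then had 4.10 and 3.86 TPM in Ctrl and 1.98 and 2.66 TPM in Osr1cKO (−0.69, SE 0.16, unadjusted p = 0.00625, adjusted p = 0.274 in limma), and Ghr, the growth hormone receptor gene, had 33.4 and 38.7 TPM in Ctrl and 26.6 and 30.6 TPM in Osr1cKO (−0.45, SE 0.10, adjusted p = 0.271). Pappa, which encodes the IGFBP4 protease, ranged over 10.3 to 36.6 TPM at 3 dpi. At 7 dpi Pappa had 10.4 and 9.38 TPM in Ctrl and 19.7 and 11.3 TPM in Osr1cKO, and it was not called in any comparison. Nor were Igf2r, the clearance receptor for IGF2 (103 to 186 TPM over the 8 libraries), or Insr, the insulin receptor gene (6.34 to 10.2 TPM). No gene of the list had an interaction past the threshold.

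Between the days, 13 of 45 genes of the pathway list were called as higher and 11 as lower in Ctrl, and 12 and 8 of 44 in Osr1cKO, with median log2 fold changes of 0.06 and 0.09. Over all genes 23.8% were higher and 25.4% lower in Ctrl, and 27.4% and 29.1% in Osr1cKO, so the list as a whole was close to the background in Ctrl and had fewer called as lower in Osr1cKO, and the genes below are given as single values. Igf2 rose with Igf1, by 1.14 (SE 0.18) in Ctrl and 0.88 (SE 0.15) in Osr1cKO. Among the genes of the growth hormone axis, Ghr rose by 1.46 (SE 0.19) and 1.53 (SE 0.12) and its feedback target Cish by 1.53 (SE 0.27) and 0.96 (SE 0.16), while Stat5a gave −0.65 (SE 0.21) and −0.54 (SE 0.17). Of the proteases that cleave binding proteins, Htra1 rose by 1.21 (SE 0.25) and 0.97 (SE 0.17) and Htra3 by 0.85 (SE 0.16) and 0.81 (SE 0.16), and Adam12 gave −0.64 (SE 0.12) and −0.82 (SE 0.10). Behind the receptor, the adaptor Irs1 rose by 1.79 (SE 0.16) and 1.25 (SE 0.21), Gab1 by 0.80 (SE 0.14) and 0.61 (SE 0.12) and Grb10 by 0.76 (SE 0.11) in Ctrl with 0.32 (SE 0.15, not called) in Osr1cKO, whereas Irs2 gave −0.19 (SE 0.21, not called) in Ctrl and −0.29 (SE 0.10) in Osr1cKO. In the intracellular pathway the kinase gene Akt1 gave −0.58 (SE 0.13) and −0.61 (SE 0.10), Foxo4 rose by 0.58 (SE 0.13) and 0.49 (SE 0.10), Pik3r2 rose by 0.61 (SE 0.11) and 0.49 (SE 0.12), and Rptor gave −0.57 (SE 0.17) and −0.57 (SE 0.13). Igf2bp1 and Igf2bp2, which encode binders of Igf2 mRNA, were lower in Ctrl (−0.67, SE 0.22, and −0.93, SE 0.25) and gave −0.18 (SE 0.12) and −0.54 (SE 0.24) in Osr1cKO without being called. Except where stated, the day values of this paragraph passed an adjusted p under 0.1 in limma.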

How the data were processed

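The authors aligned stranded, paired-end reads of polyA RNA to mm10 with STAR and made TPM from fragment counts that DESeq2 had normalized. Their counter, annotation and strand setting are not given in the sources used here. The deposited unit is TPM per gene symbol, 1 table per library, and no table was left out. Where 1 of 55385 entries repeated a symbol (106 symbols), the first was kept and 109 were dropped. Exon lengths of GENCODE mouse release 21 were matched to 53281 symbols, and with these 98.7% to 98.9% of values under 50 fragments came within 0.02 of a whole number. Fragments recovered in this way served for depth, for the filter and for limma-voom. A fragment number speaks to counting error only, and not to the variation between mice or libraries.

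TPM was scaled by an unweighted 30% trimmed mean of log ratios and fitted as log2(TPM + 1) in limma (lmFit, eBayes with a trend), over genes with at least 10 fragments in 2 libraries and 15 in total, or with a mean TPM of at least 1 where no length matched (1995 symbols). Only the 4 libraries of a comparison entered its fit, and all 8 that of the interaction. A call took a fold change above 1.2 and either an unadjusted p under 0.05 (3 dpi) or an adjusted p under 0.1 (7 dpi and days), or an adjusted p under 0.05 (interaction), as Benjamini-Hochberg values over all genes tested. The days have no threshold in the study's methods and took that of 7 dpi. Fold changes on this scale understate those of low genes. The fitting code was run on simulated counts with the same dispersion for every gene. That run says nothing of error rates at the spread of these replicates.

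The members, the pathway list (50 genes) and the marker lists were chosen with earlier results of these data known. Named were the 8 members, Osr1, the 3 genes of most similar pattern for members that spanned at least 1, up to 3 called pathway genes of smallest p per subgroup and comparison, and Igf2, Igf2r, Pappa, Ghr and Insr. Kdr, Tek, Pecam1, Cdh5, Itga7, Cdh15, Cd68, Ptprc and Lyz2, from the marker lists, were named after their values were seen. So were all 7 FAP markers, and Igfbp1 and Igf1os as neighbours. Replicates come from separate mice or pools as far as the study's methods say. Their numbers did not pair the groups (correlations of deviations between −0.144 and 0.066). Alternatives were no scaling, median-of-ratios scaling, other filters and pseudocounts, other variance models, limma-voom, a replicate block, all libraries in 1 fit and each library left out. limma 3.58.1 ran in R 4.3.3, and tables and figures were made with NumPy 2.4.6, matplotlib 3.10.9 and pandas 2.3.3 in Python 3.11.15.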

Additional observations from a re-analysis of the deposited data

How the results depend on the processing

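Of 638 alternative values of members, 591 kept their direction and their side of the threshold. The number of members called at 3 dpi was 1 in 10 of 12 alternatives, 2 with limma-voom (Igf1 and Igfbp6) and 3 with the replicate numbers crossed, a pairing added after seeing the data because Ctrl 3 dpi correlated at −0.117 with Osr1cKO 3 dpi and at −0.144 with Ctrl 7 dpi. It ranged from 1 to 3 without each library. At 7 dpi it was 1 with limma-voom and 0 to 1 without each library. Between the days it ranged from 3 to 8 in Ctrl and from 5 to 7 in Osr1cKO without each library. No member had an interaction under any alternative. The replicate block left the count at 1 at 3 dpi and 0 at 7 dpi and took Igfbp7 in Ctrl and Igf1r in Osr1cKO from the day calls. Without a filter, Igfbp2 (adjusted p = 0.101) and Igfbp7 (adjusted p = 0.192) also left the Ctrl day calls. Igfbp2 had no value at a mean TPM of at least 1 at 3 dpi and between the days in Osr1cKO. The causes were not tested.

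Without scaling, the sign turned for Igfbp3 at 7 dpi (0.10) and for the interactions of Igfbp4 (0.11) and Igfbp6 (0.11). Without single libraries, uncalled values crossed 0. At 3 dpi Igf1r lay between −0.22 and 0.13, Igfbp2 between −0.132 and 0.026, Igfbp3 between −2.30 and 0.19 and Igfbp7 between −0.35 and 0.20. At 7 dpi Igf1 lay between −0.083 and 0.330, Igfbp3 between −0.17 and 0.10 and Igfbp5 between −0.026 and 0.772. Between the days Igfbp3 lay between −1.52 and 0.91 in Ctrl and between −0.062 and 1.47 in Osr1cKO. The interactions lay between −0.284 and 0.017 for Igf1r, −0.21 and 2.22 for Igfbp3, −0.161 and 0.084 for Igfbp4, −1.19 and 0.22 for Igfbp5 and −0.23 and 0.18 for Igfbp6. The Igf1 ratio kept its directions, between 1.21 and 1.74 for the days and 0.52 and 1.05 for genotype, where p reached 0.222 in the exact permutation test.

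Over all genes, calls at 3 dpi numbered 985, 1802 with all 8 libraries in 1 fit and 434 to 2848 without each library, and limma-voom gave 239 higher and 755 lower where the scaled TPM gave 374 and 611. At 7 dpi they numbered 11, 413 with limma-voom, 27 with the replicate block, 0 unscaled, unfiltered, at a mean TPM of at least 1, without a trend and in 1 fit of all libraries, and 4 to 311 without each library. Interactions numbered 0, and up to 30 unfiltered and 73 without the first Ctrl replicate of 3 dpi. Between the days calls fell to 2612 of 8140 in Ctrl and 6110 of 9194 in Osr1cKO without a library of 7 dpi.

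With 2 libraries per group, a p above the threshold does not show equal levels. Igfbp2 had few fragments at 3 dpi, 8 to 11 a library, so a small difference in it could not be seen. Day and pooling cannot be told apart.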
